A study of Mus musculus with 33 samples.

Results

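The 37 genes described here encode the enzymes and a carrier of the urea cycle and of amino acid breakdown in liver. They were taken from the deposited gene table by name, as every row whose symbol equals 1 of 37 listed members, and all 37 were found among its 19169 genes. Polyadenylated RNA of mouse liver was sequenced in 33 libraries, which fall into 4 groups by genotype and diet. Knock-in (KI) mice carry the tamoxifen-inducible allele pair Nlrp3A350V/+CreT, in which a mutant of the inflammasome sensor Nlrp3 is switched on by a Cre recombinase, and wild-type (WT) mice are the controls. Each genotype ate either control chow with placebo or, for the same 6 weeks, chow carrying the compound GS-444217, which selectively inhibits the stress kinase ASK1. Here these diets are called control and ASK1i. WT control has 10 libraries, of 7 females and 3 males, and WT ASK1i has 8, of 4 females and 4 males. KI control has 5, of 1 female and 4 males, and KI ASK1i has 10, of 5 females and 5 males. The labels give neither the age of the mice, nor the promoter that drives Cre, nor whether WT mice received tamoxifen, and leave unsaid if every library came from its own animal. The p-values below therefore measure the spread between these libraries.

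Hepatocytes take up amino acids from portal blood, move or release their amino groups, and feed the carbon skeletons into glucose and energy metabolism. The freed ammonia is joined to bicarbonate in mitochondria, passed through ornithine, citrulline, argininosuccinate and arginine, and leaves as urea. Most of these enzymes are made at high level in adult liver, many are induced by glucagon and glucocorticoids, and their inherited loss causes disorders such as hyperammonaemia, tyrosinaemia, histidinaemia, maple syrup urine disease and homocystinuria.

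Total counts per library ran from 28099685 to 40008114. The 37 genes together held 4.09% ± 0.81 of all counts in WT control (SD, n = 10) and 4.15% ± 0.427 in WT fed the inhibitor (n = 8). In KI the share was 2.70% ± 0.246 on control chow (n = 5) and 2.93% ± 0.525 on the inhibitor (n = 10). The female library labelled KI ASK1i replicate 5 stood apart from its group. On the first principal component it lay at -59.2, among the WT libraries (-74.1 to -45.9), while every other KI library lay between 54.8 and 103. It is kept in all values unless a sentence says otherwise. For those of the 37 genes in which it lay farthest from its group, fold changes on the ASK1i diet are also given without it. Among markers of other cells, all 4 B cell genes were lower, and all 10 neutrophil, all 9 tested macrophage and monocyte and all 8 Kupffer cell genes were higher in KI on both diets. Their summed CPM (counts scaled to a common library size) ran in WT control from 3.88 to 18.2, 158 to 370 and 356 to 1110, and in KI control from 679 to 3800, 1310 to 1650 and 1830 to 2450. The B cell sum ran from 3.69 to 23.9 in WT control and from 1.72 to 6.08 in KI control. Of 6 T and NK cell genes 4 were higher on control chow, as were 4 of 7 stellate cell, 4 of 6 endothelial (1 lower) and 1 of 5 bile duct genes. None of these markers was at 0 throughout a group. The tissue label held in that all 10 hepatocyte markers were detected, with a summed CPM from 114000 to 141000 in WT control and from 38700 to 62300 in KI control. Of these 10, 8 were lower in KI on control chow, and Apoa1 and Ahsg were not called. In replicate 5 of KI ASK1i the hepatocyte sum was 121000 and the neutrophil sum 6.67, against 41500 to 73600 and 676 to 4960 in the other 9 libraries of that group. Bulk RNA cannot tell fewer hepatocytes from less of a transcript per hepatocyte. The part of these shifts in the results below was not tested. The rescaling given next cannot decide it, because the same limit holds for the hepatocyte markers themselves. Their log2 fold changes on control chow ran from -1.967 to 0.08, so they did not move by a common amount.

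On control chow, transcripts of tryptophan, histidine and proline breakdown were lower in KI liver than in WT liver for every member (4, 4 and 2 genes). Of the urea cycle 4 of 7 genes fell, of tyrosine breakdown 3 of 4, of sulfur amino acids 5 of 6, and of glycine and serine 1 of 4. Of the 37 genes, 26 fell, 1 rose and 10 were not called (edgeR quasi-likelihood test, Benjamini-Hochberg adjusted p under 0.05 over all 14934 genes tested). Of all genes tested, 28.9% were called lower and 27.8% higher. The median log2 fold change was -0.753 over the 37 genes and -0.033 over all genes tested. The genes with the largest falls were Hal, Amdhd1, Hpd and Amt, and the gene that rose was Bckdhb. In 17 of the 37 genes every KI control library lay below every WT control library, which held for 12.8% of all genes tested. In 1 gene, Bckdhb, every KI control library lay above every WT control library, and in the other 19 the libraries of the groups overlapped. The share of all genes tested with KI above WT in this way was not computed, so that count has nothing to be set against.

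These directions are relative to the whole transcriptome, and they depend on what the libraries are scaled to. In a second scaling, libraries were scaled to the mean log count of the hepatocyte markers, not to their sum, in place of all genes. The median log2 fold change of all genes tested then moved to 0.879, and 12 of the 37 genes were called higher and 4 lower. Of the 26 genes called lower before, 15 then had a positive value (0.069 to 0.429). The 4 that stayed lower were Hpd, Hal, Amdhd1 and Amt. The 12 were Arg1, Nags, Slc25a15, Got1, Gpt, Tat, Fah, Ftcd, Sds, Sdsl, Bckdhb and Mat1a, of which Fah (0.43) and Ftcd (0.23) had been called lower before. The median of the 37 was then 0.157, which is below the median of all genes. Without KI ASK1i replicate 5, which also enters the shared estimate of the spread, 27 genes fell and 1 rose on control chow. A code in the sample descriptions (L1, L5, L6, L7 or L8, meaning not given) differs between the groups, and no code holds both WT control and KI control libraries. Code and genotype can therefore not be told apart on control chow within a code. With sex and this code as terms of the model, 16 genes were called lower and 0 higher. The calls for Cps1, Asl, Gls2, Tdo2, Aass, Bckdhb, Cth, Ahcy, Gnmt, Bhmt and Prodh were lost. The shares of all genes called under these other settings are not given here. Whether these genes lost calls more than others is therefore not shown.

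On the ASK1i diet 26 of the 37 genes fell in KI against WT and 5 rose, where 28.8% of all genes tested were called lower and 30.3% higher. The median was -0.665, against 0.007 over all genes. The genes that rose were Sdsl, Tat, Mat1a, Arg1 and Bckdhb. There were 25 genes lower on both diets, which is all but Asl of the control chow list and all but Gpt of the ASK1i list. Nags, Slc25a15, Got1, Gldc and Sds were called on neither diet. In 7 genes every KI ASK1i library lay below every WT ASK1i library (3.91% of all genes tested), and with replicate 5 left out this was so in 20 genes (12% of all genes tested). The counts without that library were 27 lower and 5 higher, with a median of -0.818. Scaled to the hepatocyte markers, 10 genes were lower and 11 higher, with a median of -0.023 against 0.729 over all genes, and 7 of the 26 lower genes turned positive (0.041 to 0.282). Within L1, which held 4 KI and 2 WT libraries on this diet, 30 of the 37 genes had a lower mean log2 CPM in KI (median difference -0.809). Within L7, with 1 KI and 2 WT libraries, 35 did (-0.985).

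**Figure D1:**
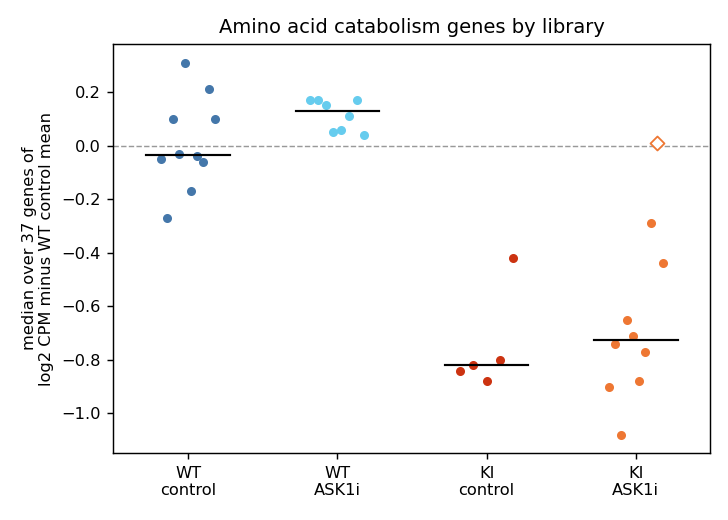
Each point is 1 library, and the y axis is the median, over the 37 genes, of its log2 CPM minus the WT control mean. Horizontal bars are group medians and the open diamond is KI ASK1i replicate 5. The 5 KI control libraries lie from -0.88 to -0.42, below all WT libraries (-0.27 to 0.31), and the diamond lies at 0.01.

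By library, the median position of the 37 genes relative to the WT control mean ran from -0.27 to 0.31 in WT control and from 0.04 to 0.17 in WT ASK1i. In KI control it ran from -0.88 to -0.42, and the 2 highest libraries of this group were at -0.42 and -0.80. In KI ASK1i it ran from -1.08 to 0.01. The library at 0.01 was replicate 5, and the next highest was at -0.29.

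**Figure D2:**
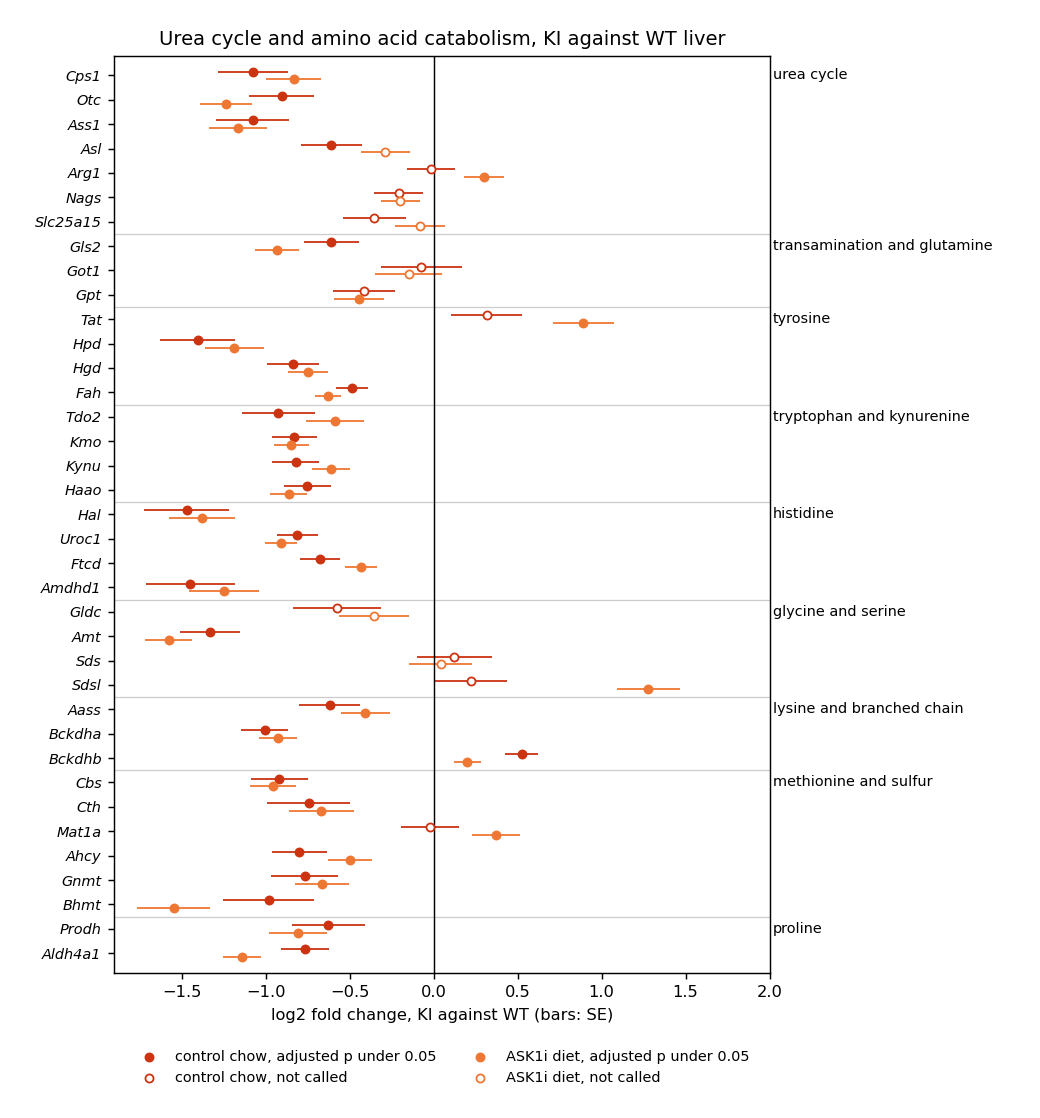
Log2 fold changes of KI against WT for the 37 genes on control chow (red) and on the ASK1i diet (orange), with bars of 1 SE. Filled points have an adjusted p under 0.05. Most points lie left of 0, and Bckdhb is filled on the right on both diets.

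The urea cycle proper has 7 members here, of which 4 fell on control chow (Cps1, Otc, Ass1 and Asl) and 3 were not called (Nags, Slc25a15 and Arg1). The falls took in the enzymes from carbamoyl phosphate to argininosuccinate lyase, while the last enzyme, the activating enzyme and the ornithine carrier were not called.

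Cps1 (Entrez gene 227231, mm10 chromosome 1, 67123027 to 67231267) makes carbamoyl phosphate from ammonia in mitochondria, the entry step of the cycle. In KI control replicates 1, 2, 3, 4 and 1P it measured 1978, 1636, 1949, 2130 and 2714 CPM, and in WT control it ran from 3398 through a median of 4211 to 6733 CPM. All 5 KI control libraries lay below all 10 WT control libraries. The means were 2082 ± 396.5 CPM (SD, n = 5) and 4670 ± 1294 CPM (n = 10), and Cps1 fell by 1.08 (SE 0.21) on the log2 scale (edgeR adjusted p = 7.12e-05). With the inhibitor, WT ran from 3421 through 4619 to 5117 CPM and KI from 1512 through 2410 to 4327 CPM, where the highest KI value was replicate 5. The fall there was 0.83 (SE 0.16, edgeR adjusted p = 7.27e-05), and 0.97 without that library.

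Otc (X chromosome, 10252359 to 10321024), whose enzyme joins carbamoyl phosphate to ornithine to give citrulline, measured 141, 169, 182, 188 and 174 CPM in the KI control libraries. In WT control it ran from 248 through 306 to 438 CPM, so the groups did not overlap. It fell by 0.91 (SE 0.19) on control chow (edgeR adjusted p = 0.00019). On the ASK1i diet it ran from 341 through 393 to 479 CPM in WT and from 110 through 157 to 354 CPM in KI, and fell by 1.24 (SE 0.15, edgeR adjusted p = 6.74e-08). The KI library at 354 CPM was replicate 5, and the other 9 lay below every WT ASK1i library. Without replicate 5 the fall was 1.47.

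Ass1 (chromosome 2, 31470270 to 31520670) joins citrulline to aspartate, the step that brings in the second nitrogen of urea. In KI control its values were 1675, 1487, 1576, 2155 and 1626 CPM, all below the WT control range of 2711 to 5339 CPM (median 3757). It fell by 1.08 (SE 0.22, edgeR adjusted p = 0.000113) on control chow and by 1.17 (SE 0.17, edgeR adjusted p = 1.11e-06) on the ASK1i diet, where KI ran from 1296 through 1628 to 3653 CPM and WT from 3364 through 4086 to 6139 CPM. Without replicate 5 the latter fall was 1.33. Asl, which splits argininosuccinate into arginine and fumarate, measured 757, 443, 461, 496 and 526 CPM in KI control against 514 through 929 to 1575 CPM in WT control. The ranges overlapped, with 3 of 5 KI control libraries below all WT control libraries and the female library the highest of the 5. Asl fell by 0.61 (SE 0.18, edgeR adjusted p = 0.00521) on control chow. Among males it ran from 514 to 861 CPM in WT control and from 443 to 526 CPM in KI control. The call was lost in males alone (log2 fold change -0.44, edgeR adjusted p = 0.106). With the inhibitor, the log2 fold change of Asl was -0.29 (SE 0.15, edgeR adjusted p = 0.0922).

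Arg1 (chromosome 10, 24915207 to 24927470), the liver arginase that releases urea and returns ornithine, was not called on control chow. Its KI control values of 1338, 1166, 1198, 1488 and 1252 CPM lay inside the WT control range of 993 through 1368 to 1905 CPM, with a log2 fold change of -0.01 (SE 0.14). That value was 0.90 (edgeR adjusted p = 5.99e-06) with scaling to the hepatocyte markers, and it was positive, up to 0.17, under 7 further settings. Among mice fed the inhibitor, Arg1 rose by 0.30 (SE 0.12, edgeR adjusted p = 0.0299), from 1222 through 1422 to 1615 CPM in WT to 1131 through 1710 to 2297 CPM in KI. This call was lost without WT ASK1i replicate 3 or 4 or KI ASK1i replicate 6. Arg1 is also made by some macrophages, whose marker sum was higher in the same KI libraries, and their part in the Arg1 level was not tested.

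Nags makes N-acetylglutamate, the obligate activator of the Cps1 enzyme, and Slc25a15 carries ornithine into mitochondria. Nags measured 38.3, 37.4, 50.5, 70.4 and 43.3 CPM in KI control and 44.8 through 56.9 to 64.6 CPM in WT control (log2 fold change -0.21, SE 0.14). Slc25a15 measured 161, 161, 205, 374 and 340 CPM in KI control and 277 through 318 to 351 CPM in WT control (-0.35, SE 0.19). In both genes KI control spanned the WT range, with replicate 4 above every WT control library. Below every WT control library lay replicates 1, 2 and 1P for Nags and replicates 1, 2 and 3 for Slc25a15. Without replicate 4 both passed the test, Nags at -0.34 and Slc25a15 at -0.55 (edgeR adjusted p = 0.0363 and 0.00874). Under ASK1i, their log2 fold changes were -0.20 (SE 0.12) and -0.08 (SE 0.15).

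**Figure D3:**
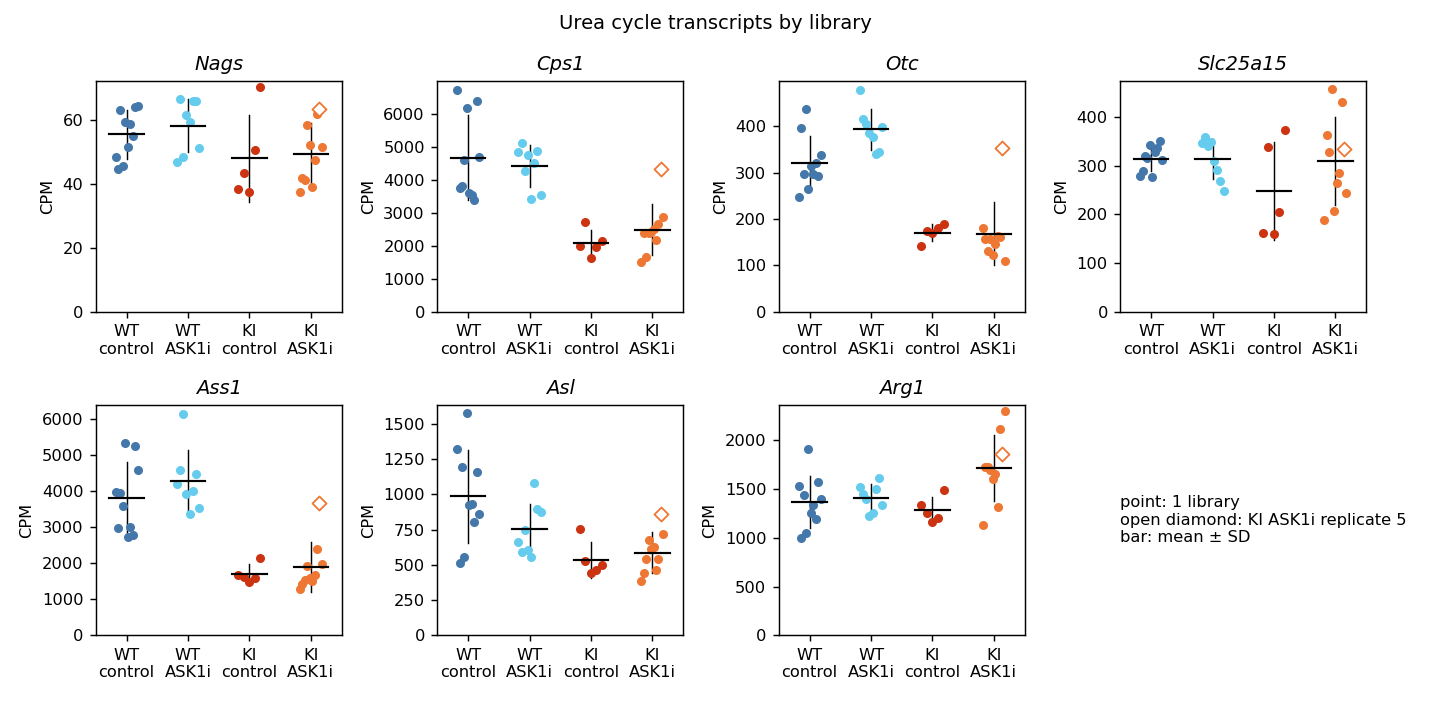
CPM of the 7 urea cycle genes in every library, on linear axes from 0, by group. Each point is 1 library, horizontal bars are means, vertical bars are 1 SD, and the open diamond is KI ASK1i replicate 5. For Cps1, Otc and Ass1 the KI control points lie below all WT control points. For Arg1 they lie inside the WT control range, and for Nags and Slc25a15 they reach below and above it.

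The ratio of 2 transcripts within a library does not depend on how the library is scaled. The pairs given here were chosen after their values were seen, so they are descriptions. The ratio of Arg1 to Cps1 CPM ran from 0.226 through 0.303 to 0.378 in WT control and from 0.461 through 0.676 to 0.713 in KI control, without overlap. With the inhibitor, it ran from 0.258 through 0.329 to 0.377 in WT and from 0.430 through 0.716 to 1.03 in KI, the lowest KI value being replicate 5.

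Transamination and glutamine breakdown were represented by 3 genes. Gls2, the liver glutaminase that releases ammonia from glutamine beside the urea cycle, measured 221, 251, 228, 300 and 306 CPM in KI control, all below the WT control range of 333 through 379 to 513 CPM. It fell by 0.61 (SE 0.16, edgeR adjusted p = 0.00235) on control chow and by 0.93 (SE 0.13, edgeR adjusted p = 6.36e-07) on the ASK1i diet. Gpt, which moves the amino group of alanine, had log2 fold changes of -0.41 (SE 0.19, edgeR adjusted p = 0.0581) on control chow and -0.44 (SE 0.15, edgeR adjusted p = 0.0119) on the ASK1i diet, so it fell on the latter. That call was lost with sex and L code in the model (edgeR adjusted p = 0.0637), with numbered titles alone (0.0918) and in males alone (0.596, log2 fold change -0.16), and its value was 0.24 with scaling to the hepatocyte markers. The interaction, which compares the diets, did not call Gpt (-0.03, SE 0.23). Got1, the cytosolic aspartate aminotransferase, was not called on either diet (-0.07, SE 0.24, and -0.15, SE 0.20).

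Of the tyrosine genes, the 3 later enzymes fell on both diets and the first did not. Hpd, whose enzyme makes homogentisate, had the smallest p of this group on control chow. It measured 746, 534, 560, 660 and 615 CPM in KI control and 1244 through 1872 to 2604 CPM in WT control, with no overlap, and fell by 1.40 (SE 0.22, edgeR adjusted p = 4.89e-06). On the ASK1i diet it fell by 1.19 (SE 0.17), and by 1.43 without replicate 5, which stood at 2152 CPM. Hgd, which opens the ring of homogentisate, fell by 0.84 (SE 0.15) and, with the inhibitor, by 0.75 (SE 0.12). Fah, the last enzyme and the one lost in tyrosinaemia of the hepatorenal type, fell by 0.48 (SE 0.10) and 0.63 (SE 0.08).

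Tat, the tyrosine aminotransferase that starts the pathway and a classic glucocorticoid target of liver, had positive values on both diets. Its KI control values were 2458, 1348, 1452, 1681 and 2495 CPM against 988 through 1389 to 2311 CPM in WT control, with 2 KI libraries above every WT library and a log2 fold change of 0.32 (SE 0.21, edgeR adjusted p = 0.204). Among mice fed the inhibitor, it ran from 1045 through 1376 to 1956 CPM in WT and from 1118 through 3073 to 3737 CPM in KI. There 7 of 10 KI libraries lay above every WT library, and Tat rose by 0.89 (SE 0.18, edgeR adjusted p = 0.000103). With sex and the L code in the model this call was lost. The ratio of Tat to Hpd ran from 0.544 through 0.744 to 1.86 in WT control and from 2.53 through 2.59 to 4.06 in KI control.

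All 4 genes of tryptophan and kynurenine breakdown fell on both diets. Kmo, the mitochondrial kynurenine hydroxylase, had the smallest p of the group. It measured 130, 124, 146, 156 and 184 CPM in KI control, below the WT control range of 223 through 255 to 357 CPM, and fell by 0.83 (SE 0.13, edgeR adjusted p = 6.05e-06) on control chow and by 0.85 (SE 0.11) on the ASK1i diet. Tdo2, the hepatic dioxygenase that opens the indole ring, fell by 0.92 (SE 0.22) and 0.59 (SE 0.17). Kynu, which cleaves hydroxykynurenine, fell by 0.82 (SE 0.14) and 0.61 (SE 0.11). Haao, which makes the precursor of quinolinate and so of NAD, fell by 0.75 (SE 0.14) and 0.86 (SE 0.11). Tdo2 in KI ASK1i ran from 583 to 2106 CPM, the highest being replicate 5 and the next 967 CPM. Without that library Tdo2 fell by 0.82 and Kmo by 0.97 on the ASK1i diet.

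Histidine breakdown had the lowest median of the 9 groups of members on control chow, -1.13, and all 4 genes fell on both diets. Hal, the ammonia lyase that takes histidine to urocanate, and Amdhd1, the imidazolonepropionase 2 steps later, are neighbours on chromosome 10. Hal lies at 93488768 to 93516743 on the forward strand and Amdhd1 at 93523338 to 93540033 on the reverse strand, with 6594 bases between them. Their promoters, from 250 bases before to 50 bases after the start (RefSeq, GRCm38.p6), are shown because these neighbours had nearly the same fall, a choice made after the values were seen. They lie at chr10:93488518-93488817 (forward) and chr10:93539984-93540283 (reverse), and capitals mark matches to the motifs named below.
Hal: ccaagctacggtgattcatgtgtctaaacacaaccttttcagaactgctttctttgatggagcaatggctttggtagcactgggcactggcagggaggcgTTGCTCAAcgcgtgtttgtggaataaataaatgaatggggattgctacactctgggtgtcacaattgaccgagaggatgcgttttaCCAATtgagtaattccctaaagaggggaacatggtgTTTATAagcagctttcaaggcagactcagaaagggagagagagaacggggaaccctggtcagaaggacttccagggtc
Amdhd1: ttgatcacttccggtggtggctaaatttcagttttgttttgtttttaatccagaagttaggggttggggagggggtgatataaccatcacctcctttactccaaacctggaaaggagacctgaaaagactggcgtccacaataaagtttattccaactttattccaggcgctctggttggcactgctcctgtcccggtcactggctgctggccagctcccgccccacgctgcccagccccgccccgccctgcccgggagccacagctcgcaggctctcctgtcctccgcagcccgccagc

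The motifs searched on both strands were TATAAA (the core promoter box), TTGCNNAA (C/EBP), CAAAGTNCA (HNF4), TGACGTCA (CRE), the palindromic glucocorticoid element, TGATGNAA (C/EBP-ATF) and CCAAT. The Hal promoter held the core promoter box, read on the reverse strand, starting at -28, a CCAAT box at -64 and a C/EBP match at -150, which do not overlap. Of 27025 promoters in the table, 14.2% held the letters of that box, 37.9% CCAAT and 10.8% the C/EBP letters. The Amdhd1 window held none of the 7. Promoter entries existed for 27 of the 37 genes, too few for a statement about the set.

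Hal measured 203, 182, 167, 256 and 141 CPM in KI control against 365 through 611 to 736 CPM in WT control. Amdhd1 measured 90.6, 89.6, 82.8, 101 and 59.9 CPM against 194 through 237 to 279 CPM. In both genes the groups did not overlap, and in both KI control 4 was the highest and 1P the lowest of the 5 KI libraries. Hal fell by 1.47 (SE 0.25, edgeR adjusted p = 1.55e-05) and Amdhd1 by 1.45 (SE 0.27, edgeR adjusted p = 3.65e-05). Under ASK1i, the falls were 1.38 (SE 0.20) and 1.25 (SE 0.21), and without replicate 5 they were 1.66 and 1.61. KI ASK1i replicate 5 was at 651 CPM for Hal and 305 CPM for Amdhd1, while the next highest KI ASK1i libraries were at 249 and 116 CPM.

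Uroc1, the urocanase between those steps, had the smallest p of the histidine genes. Its KI control values of 420, 370, 394, 531 and 433 CPM lay below the WT control range of 595 through 780 to 875 CPM. It fell by 0.81 (SE 0.12, edgeR adjusted p = 2.03e-06) on control chow and by 0.91 (SE 0.10) on the ASK1i diet, where all 10 KI libraries, replicate 5 included, lay below all WT libraries. Ftcd, which hands the formimino group to folate, fell by 0.68 (SE 0.12) and 0.43 (SE 0.10).

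Glycine and serine genes split. Amt, the aminomethyltransferase of the glycine cleavage system, had the smallest p on control chow of all 37 genes. It measured 10.1, 12.7, 11.1, 11.9 and 12.6 CPM in KI control and 22.6 through 28.0 to 33.8 CPM in WT control. It fell by 1.33 (SE 0.18, edgeR adjusted p = 3.75e-07) there and by 1.58 (SE 0.14, edgeR adjusted p = 6.64e-10) on the ASK1i diet, with all KI libraries below all WT libraries on each diet. Without replicate 5 the latter fall was 1.75. Gldc, the decarboxylase of the same system, had log2 fold changes of -0.57 (SE 0.26, edgeR adjusted p = 0.0608) and -0.35 (SE 0.21, edgeR adjusted p = 0.145). Without KI ASK1i replicate 5 it was called lower on both diets.

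Sds, the liver serine dehydratase, and its relative Sdsl lie side by side on chromosome 5 with 3736 bases between them. RSEM divides reads that fit several genes, so levels of such related copies are less certain one by one. Sds measured 291, 217, 187, 306 and 268 CPM in KI control and 122 through 238 to 302 CPM in WT control, and was not called on either diet (0.12, SE 0.22, and 0.04, SE 0.19). Sdsl measured 12.5, 9.77, 12.7, 18.2 and 9.31 CPM in KI control and 6.23 through 10.5 to 16.9 CPM in WT control (0.22, SE 0.22). With the inhibitor, Sdsl ran from 4.92 through 8.29 to 12.1 CPM in WT and from 10.4 through 16.0 to 30.6 CPM in KI. There 9 of 10 KI libraries lay above every WT library, and it rose by 1.28 (SE 0.19, edgeR adjusted p = 1.02e-06), the largest rise among the 37 genes in any of the 6 comparisons.

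Branched-chain ketoacid dehydrogenase commits leucine, isoleucine and valine to oxidation, and Bckdha and Bckdhb encode the alpha and beta subunits of its decarboxylase. These partners moved in opposite directions. Their promoters, at chr7:25658712-25659011 on the reverse strand and chr9:83924887-83925186 on the forward strand (RefSeq, GRCm38.p6), are printed for that reason, again chosen after the values were seen.
Bckdha: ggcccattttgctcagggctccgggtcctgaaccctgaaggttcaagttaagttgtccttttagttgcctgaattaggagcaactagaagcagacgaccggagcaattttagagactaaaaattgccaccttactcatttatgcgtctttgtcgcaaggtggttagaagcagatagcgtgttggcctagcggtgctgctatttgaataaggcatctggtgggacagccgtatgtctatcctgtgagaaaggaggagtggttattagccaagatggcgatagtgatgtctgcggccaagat
Bckdhb: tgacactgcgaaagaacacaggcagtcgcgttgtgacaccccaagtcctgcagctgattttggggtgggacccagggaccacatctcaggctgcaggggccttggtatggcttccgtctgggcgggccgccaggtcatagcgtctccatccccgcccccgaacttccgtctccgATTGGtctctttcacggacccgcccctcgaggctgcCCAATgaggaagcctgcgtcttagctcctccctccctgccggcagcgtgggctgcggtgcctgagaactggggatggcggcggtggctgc

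The Bckdhb window held CCAAT at -40 and its reverse at -76, and the Bckdha window held none of the 7 motifs. Bckdha measured 124, 105, 101, 108 and 75.9 CPM in KI control, all below the WT control range of 178 through 219 to 248 CPM, and fell by 1.01 (SE 0.14, edgeR adjusted p = 6.12e-07). Bckdhb measured 115, 119, 131, 106 and 119 CPM in KI control, all above the WT control range of 70.4 through 83.1 to 91.5 CPM, and rose by 0.52 (SE 0.10, edgeR adjusted p = 4.82e-05). On the ASK1i diet Bckdha fell by 0.93 (SE 0.11) and Bckdhb rose by 0.20 (SE 0.08, edgeR adjusted p = 0.0365). Without KI ASK1i replicate 5 these were -1.07 and 0.25. The rise on the ASK1i diet was not called without WT ASK1i replicate 2, 3 or 4.

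The ratio of Bckdhb to Bckdha CPM separated the genotypes in all libraries but replicate 5. It ran from 0.354 through 0.387 to 0.429 in WT control and from 0.926 through 1.14 to 1.57 in KI control. Among mice fed the inhibitor, it ran from 0.334 through 0.394 to 0.488 in WT, and in KI from 0.338, which was replicate 5, with the other 9 libraries between 0.884 and 1.34. Aass, the first enzyme of lysine breakdown, fell by 0.62 (SE 0.18) on control chow and by 0.41 (SE 0.15) on the ASK1i diet.

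**Figure D4:**
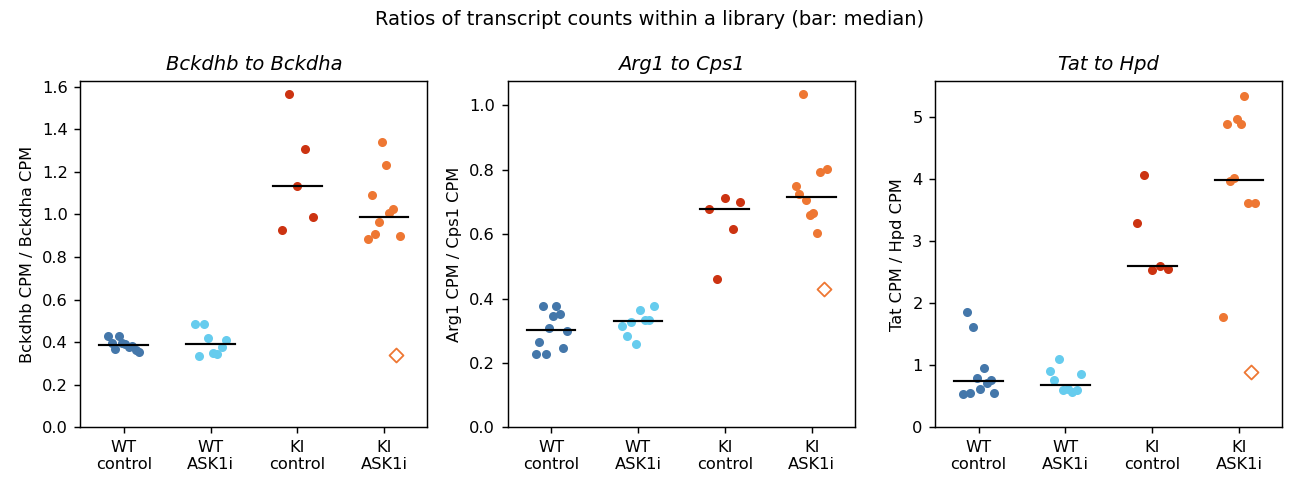
Ratios of CPM within each library for 3 pairs of genes, on linear axes from 0, by group. Each point is 1 library, bars are medians, and the open diamond is KI ASK1i replicate 5. The Bckdhb to Bckdha ratio is at most 0.488 in WT and at least 0.884 in KI apart from the diamond at 0.338.

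Sulfur amino acid and methyl group genes fell in 5 of 6 cases on control chow. Cbs, which condenses homocysteine with serine, had the smallest p and measured 322, 289, 222, 368 and 275 CPM in KI control against 440 through 553 to 695 CPM in WT control. It fell by 0.92 (SE 0.17, edgeR adjusted p = 4.27e-05) on control chow and by 0.96 (SE 0.14) on the ASK1i diet. Cth, which makes cysteine from cystathionine, fell by 0.74 (SE 0.25) and 0.67 (SE 0.19), and its control chow call was lost without KI control replicate 1 (edgeR adjusted p = 0.0771). Without KI ASK1i replicate 5 it fell by 0.89 on the ASK1i diet. Ahcy, which clears S-adenosylhomocysteine, fell by 0.80 (SE 0.16) and 0.50 (SE 0.13). Gnmt, which spends surplus methyl groups on glycine, fell by 0.77 (SE 0.20) and 0.67 (SE 0.16). Bhmt, which remethylates homocysteine with betaine, fell by 0.98 (SE 0.27) and 1.55 (SE 0.22), and on the ASK1i diet all 10 KI libraries lay below all WT libraries.

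Mat1a, the liver enzyme that makes S-adenosylmethionine, was the exception. Its KI control values of 5329, 4026, 4782, 5944 and 5303 CPM lay inside the WT control range of 3279 through 5561 to 9251 CPM (log2 fold change -0.02, SE 0.17, and 0.90 with scaling to the hepatocyte markers). Under ASK1i, it rose by 0.37 (SE 0.14, edgeR adjusted p = 0.0271), with KI at 4760 through 6416 to 7929 CPM and WT at 3648 through 4955 to 7189 CPM. Only 1 of the 10 KI ASK1i libraries lay above every WT ASK1i library, and the call was lost without WT ASK1i replicate 2P.

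The 2 genes of proline breakdown fell on both diets. Aldh4a1, which finishes the path to glutamate, measured 154, 201, 211, 251 and 187 CPM in KI control against 243 through 328 to 465 CPM in WT control, with 4 of 5 KI libraries below all WT libraries. It fell by 0.77 (SE 0.14, edgeR adjusted p = 4.62e-05) on control chow and by 1.14 (SE 0.11, edgeR adjusted p = 3.27e-09) on the ASK1i diet. Prodh, the mitochondrial proline dehydrogenase, fell by 0.63 (SE 0.22) and 0.81 (SE 0.18), and its control chow call was lost without KI control replicate 1 (edgeR adjusted p = 0.0737).

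Levels of different genes can be compared per length of transcript. The length used was that of the longest matched transcript, 1240 bases for Ass1 and 2490 for Bhmt, and the order below depends on it. In WT control the most abundant of the 37 per kilobase were Ass1 at 3070 ± 793 CPM per kilobase (SD, n = 10), Bhmt at 2940 ± 974, Mat1a at 1690 ± 540 and Hpd at 1330 ± 308. Ass1 and Bhmt did not differ beyond their spread, nor did Mat1a and Hpd. In KI control (n = 5) the order was Mat1a at 1460 ± 207, Bhmt at 1420 ± 541 and Ass1 at 1370 ± 211, which did not differ beyond their spread. Arg1 was the fourth at 872 ± 87.5, above Cps1 at 375 ± 71.4, whereas in WT control Arg1 stood at 925 ± 181 and Cps1 at 841 ± 233. At the low end were Amt at 13.7 ± 1.78 and Sdsl at 8.69 ± 2.79 in WT control.

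The ASK1 inhibitor called none of the 37 genes in WT or in KI liver (edgeR quasi-likelihood test). In WT 1.4% of all genes tested were called in either direction, and in KI 0.0536%. In WT 3 of the 37 had an unadjusted p under 0.05, as had 2079 of all 14934 genes tested. DESeq2 called 1 of the 37 there and limma-voom 0. The smallest p was that of Aldh4a1, which ran from 243 through 328 to 465 CPM on control chow and from 373 through 440 to 562 CPM on the ASK1i diet, a log2 fold change of 0.43 (SE 0.12, edgeR adjusted p = 0.0552). It passed the test when any of 7 libraries was left out, KI ASK1i replicate 5 among them (edgeR adjusted p = 0.0236). Fah was next at 0.23 (SE 0.08, edgeR adjusted p = 0.151). In KI 4 of the 37 had an unadjusted p under 0.05, as had 1539 of all 14934 genes tested. DESeq2 and limma-voom each called 0 of the 37 there. The 2 smallest p there were those of Sdsl at 0.65 (SE 0.21, edgeR adjusted p = 0.407) and Arg1 at 0.39 (SE 0.14, edgeR adjusted p = 0.429). The medians of the 37 were 0.137 in WT and 0.154 in KI, against -0.002 and 0.027 over all genes tested. In KI, 29 of 37 genes had a higher mean on the inhibitor within L1 (4 libraries against 1) and 10 of 37 within L7 (1 against 4). With a single library on one side, code and library cannot be told apart there. Within L6, which held 4 libraries of each WT group, 26 of 37 were higher.

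The interaction, which tests whether the genotype difference depends on the diet, called 0 of the 37 genes and 0% of all genes tested. An unadjusted p under 0.05 was found for 4 of the 37 and for 1251 of all 14934 genes tested. DESeq2 and limma-voom each called 0 of the 37. The smallest were those of Sdsl at 1.05 (SE 0.28, edgeR adjusted p = 0.361) and Bckdhb at -0.32 (SE 0.13, edgeR adjusted p = 0.54). The rises of Tat, Sdsl, Arg1 and Mat1a called on the ASK1i diet alone were therefore not shown to differ from their values on control chow.

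Between the sexes, 1 of the 37 genes was called lower in males and 0 higher, where 0.703% and 0.783% of all genes tested were called. The gene was Asl, lower by a log2 fold change of -0.46 (SE 0.11, edgeR adjusted p = 0.0308). In WT control it ran from 802 through 1160 to 1575 CPM in the 7 females and from 514 through 559 to 861 CPM in the 3 males. The sexes overlapped in that group, and the call was lost when any of 7 libraries was left out. Of the 37, 6 had an unadjusted p under 0.05, as had 2093 of all 14934 genes tested. DESeq2 and limma-voom each called 1 of the 37 lower and 0 higher. Sex is a term of the model behind the other comparisons, and in the males alone 21 genes were lower and 1 higher in KI on control chow. The control chow calls lost in males alone were those of Asl, Aass, Cth, Bhmt and Prodh. On the ASK1i diet the calls of Gpt, Gnmt and Prodh were lost in males alone.

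Around these members, 96 other genes of amino acid handling were listed for their known roles, and 93 passed the filter on low counts. In KI on control chow 12 of the 93 rose, 64 fell and 17 were not called, with a median of -0.696, beside 27.8% and 28.9% of all genes tested. With the inhibitor, 14 rose and 64 fell, with the same median of -0.696. Without KI ASK1i replicate 5 these were 16 and 64, with a median of -0.769. All 4 further genes of phenylalanine and tyrosine breakdown, all 6 of choline, betaine and sarcosine, both of lysine and 15 of 17 of branched-chain and propionyl-CoA breakdown fell on control chow. Pcbd1, which recycles tetrahydrobiopterin, fell by 0.94 (SE 0.15). Dmgdh and Pipox, which oxidise dimethylglycine and pipecolate or sarcosine, fell by 1.67 (SE 0.23) and 1.13 (SE 0.16). Gcdh, the glutaryl-CoA dehydrogenase of lysine breakdown, fell by 1.14 (SE 0.16) and Dhtkd1 by 1.08 (SE 0.21). Acad8 and Mccc2, of valine and leucine breakdown, fell by 1.01 (SE 0.13) and 0.90 (SE 0.11). Gcsh, a further subunit of the glycine cleavage system, fell by 0.95 (SE 0.12) and Shmt1 by 1.27 (SE 0.18). Aadat, a kynurenine aminotransferase, fell by 1.40 (SE 0.25) and Ccbl1, another, by 0.83 (SE 0.19). Mpst, which handles mercaptopyruvate, fell by 1.14 (SE 0.14).

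Genes that handle ammonia and glutamate outside the cycle fell in 8 of 11 cases and rose in 3. Glul, the glutamine synthetase of hepatocytes around the central vein, measured 594, 409, 343, 324 and 437 CPM in KI control. WT control ran from 718 through 846 to 1000 CPM, and Glul fell by 0.87 (SE 0.16, edgeR adjusted p = 2.59e-05). The value of 594 CPM was that of the female library. On the ASK1i diet Glul ran from 474 to 1115 CPM in KI females and from 378 to 590 CPM in KI males. WT females ran there from 936 to 1155 CPM and WT males from 803 to 916 CPM. Oat, the ornithine aminotransferase, fell by 0.84 (SE 0.20), with KI control at 589 to 831 CPM and WT control at 837 to 2067 CPM. Glud1, the glutamate dehydrogenase, fell by 0.73 (SE 0.15), with KI control at 402 to 475 CPM and WT control at 578 to 865 CPM. Arg2, the mitochondrial arginase of many non-hepatocyte cells, measured 6.47, 4.70, 5.13, 3.95 and 4.59 CPM in KI control and 0.154 through 0.682 to 0.932 CPM in WT control. It rose by 3.26 (SE 0.36, edgeR adjusted p = 2.45e-08). The marker sums of neutrophils, macrophages and Kupffer cells given above were higher in the same KI libraries, and their part in the Arg2 level was not tested.

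Of 4 genes of amino acid synthesis 3 rose on each diet and 1 was not called. Asns, the asparagine synthetase, measured 18.4, 15.9, 17.3, 21.2 and 16.5 CPM in KI control and 0.0703 through 0.569 to 1.14 CPM in WT control, and rose by 4.64 (SE 0.49, edgeR adjusted p = 1.28e-08). In mice fed the inhibitor Asns ran from 0.762, which was replicate 5, through 23.8 to 65.6 CPM in KI, and rose by 4.47 (SE 0.47), or 4.65 without replicate 5. Phgdh, the first enzyme of serine synthesis, named here after its value was seen, rose by 2.55 (SE 0.57) on control chow. Psat1, the next enzyme, rose by 1.62 (SE 0.36) on control chow and by 2.53 (SE 0.32) on the ASK1i diet. Aldh18a1, which starts proline synthesis, rose by 2.05 (SE 0.30). Prodh2, the hydroxyproline dehydrogenase, named after its value was seen, fell by 3.23 (SE 0.74, edgeR adjusted p = 0.00048). Its WT control libraries ran from 128 through 164 to 184 CPM and its KI control libraries from 6.04 to 22.2 CPM, without overlap. Prodh2 in KI ASK1i ran from 1.01 through 5.67 to 149 CPM, the highest being replicate 5. Its log2 fold change on the ASK1i diet was -3.41, and -4.71 without replicate 5. Mtr, the methionine synthase that uses folate, rose by 0.71 (SE 0.13). Among 10 transporters 5 fell and 1 rose on control chow, with Slc38a4, a carrier of neutral and cationic amino acids, lower by a log2 fold change of -0.58 (SE 0.12) and the betaine carrier Slc6a12 at -0.60 (SE 0.13). Of 9 regulators 5 fell, led by the mitochondrial deacylase Sirt3 at -1.19 (SE 0.14) and the glucagon receptor Gcgr at -1.04 (SE 0.18), and 0 rose. With the inhibitor, 4 of the 93 were called higher in WT, namely Slc6a12 at 0.53 (SE 0.11, edgeR adjusted p = 0.00531), Agxt2 at 0.42, Sirt5 at 0.41 and Pcca at 0.40. Of all 14934 genes tested, 169 were called higher in WT on the inhibitor. In KI 0 of the 93 were called, where 0.0536% of all genes tested were. An unadjusted p under 0.05 was found for 30 of the 93 in WT and for 15 in KI. Such a p was found for 2079 of all genes tested in WT and for 1539 in KI.

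**Figure D5:**
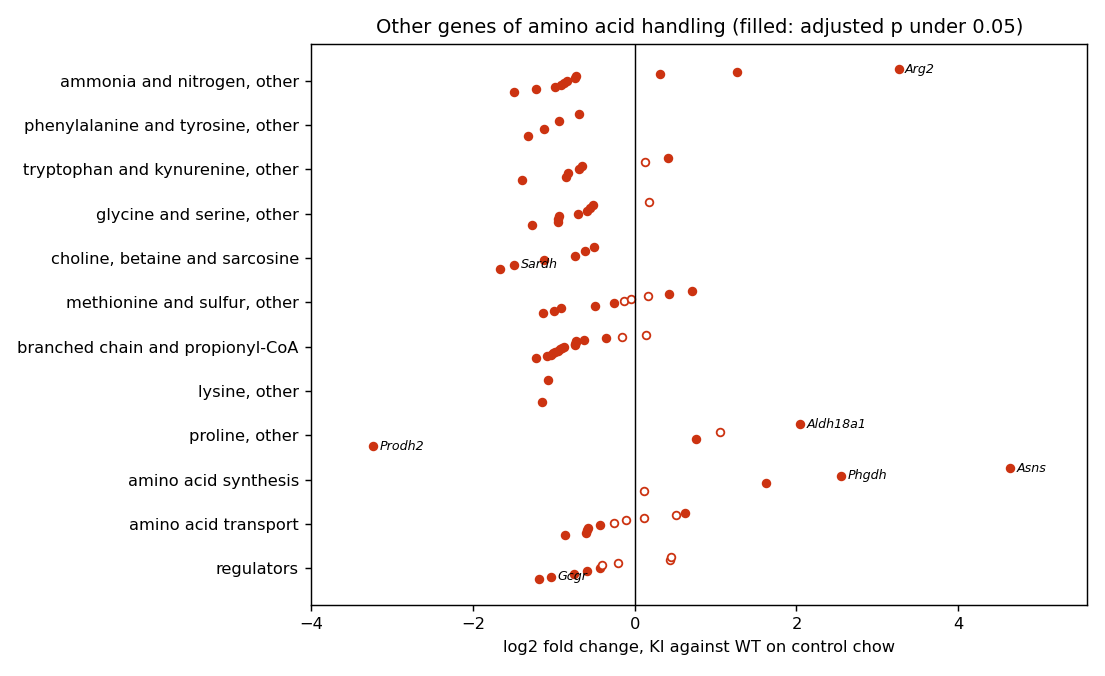
Log2 fold changes of KI against WT on control chow for the 93 other genes of amino acid handling that were tested, 1 row of points per list. Filled points have an adjusted p under 0.05, and some genes are named. Breakdown lists lie mostly left of 0, while Arg2, Aldh18a1, Asns and Phgdh lie right of it.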

How the data were processed

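Liver RNA was extracted with Qiagen miRNeasy and made into TruSeq Stranded mRNA libraries, per the labels' protocols. The submitters' processing notes name CASAVA 1.8.2, STAR 2.4, RSEM 1.2.14 and the build mm10. The deposited table holds RSEM expected counts per gene, not normalised by the authors. RSEM shares reads among similar copies, so related genes such as Sds and Sdsl or Bhmt and Bhmt2 are less certain one by one. The library sex and title set (numbered, or with P) and L code were read from the labels.

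Expected counts were rounded and fitted in edgeR 4.0.16 (R 4.3.3; quasi-likelihood test, robust, TMM scaling, filterByExpr by group, prior count 0.125). The model had group, sex and title set over all 33 libraries, and 14934 genes passed the filter, all 37 members included. P-values were adjusted by Benjamini-Hochberg over all genes tested in each of 6 comparisons, with a threshold of 0.05. CPM uses TMM library sizes, and log2 CPM adds a prior count of 2. The script was tested on simulated data. DESeq2 1.42.0 and limma 3.58.1 (voom) were among the alternatives. Total counts per library limit the precision of low genes such as Arg2 in WT.

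The members and gene lists were chosen with earlier results of these data known. Values by library are given for all urea cycle genes and, in each other group of members, for the gene with the smallest p on control chow and any gene whose direction differs from most of its group. Hal and Amdhd1 were added after their values were seen. In the diet comparisons and the interaction, called members are named, otherwise the 2 with the smallest p. Of each further list, up to 2 called genes with the smallest p are named, and Glul, Oat and Glud1 always. Kyat1 and Kyat3 were matched as Ccbl1 and Ccbl2. Promoters are RefSeq's, and gene coordinates are the lowest start and highest end that the deposited table gives for a gene. A few genes that this rule names are not reported here.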

Additional observations from a re-analysis of the deposited data

Results flagged for a closer look

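In each of the 4 groups (5 to 10 libraries), the highest or lowest value was set against the rest of its group (Dixon's 95% limit). This picked out 16 of 148 gene and group pairs, and chance alone picks about 1 in 20. Of the 16, 11 are the same library, KI ASK1i replicate 5, which was the highest of its group. It measured 4327 CPM for Cps1 (next highest 2861), 353.7 for Otc (181), 3653 for Ass1 (2390) and 2152 for Hpd (868.5). It measured 2106 CPM for Tdo2 (966.5), 266.3 for Kmo (193.2), 651.1 for Hal (248.8) and 304.9 for Amdhd1 (116.3). It measured 21.36 CPM for Amt (13.26), 234.4 for Bckdha (129.8) and 741.8 for Cth (422.3). All 11 genes were lower in KI on the ASK1i diet with this library in the fit.

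The other 5 fall in different libraries. Ass1 was 6139 CPM in WT ASK1i replicate 2P, where the next highest was 4569, and 2155 CPM in KI control replicate 4, where the next was 1675. Asl was 757 CPM in KI control replicate 1, the female of that group, and the next was 526. Uroc1 was 595.3 CPM in WT control replicate 1, below the next lowest at 761.5. Bckdhb was 70.43 CPM in WT control replicate 1P, below the next lowest at 81.69.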

How the results depend on the processing

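Of 59 calls among the 37 genes, 0 reversed under the settings other than hepatocyte-marker scaling. On control chow 1 gene was higher and 26 lower: 0 and 16 with sex and L code, and 12 and 4 with hepatocyte-marker scaling. On the ASK1i diet 5 were higher: 2 with L code, with the replicate block or with numbered titles alone, and 11 with hepatocyte-marker scaling, which left 10 lower. The inhibitor in WT had 1 gene higher with DESeq2 (Aldh4a1) and 1 with hepatocyte-marker scaling, against 0. Between the sexes 1 gene was lower: 0 with L code, replicate block, numbered titles or hepatocyte-marker scaling, which called 2 higher. The cause was not tested, and the share of all genes called under each setting is not given here.

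Leaving out 1 library gave on control chow 1 to 1 higher and 24 to 29 lower, and on the ASK1i diet 3 to 5 higher and 26 to 27 lower, with 3 without WT ASK1i replicate 3 or 4. It gave 0 to 1 higher for the inhibitor in WT and 0 to 1 lower between the sexes.

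With hepatocyte-marker scaling 15 of 26 genes called lower on control chow and 7 of 26 on the ASK1i diet had a positive value. Under the other settings the values that changed sign belong to genes that were not called. On control chow Arg1 was 0.016 with RLE size factors and with DESeq2, 0.007 with limma-voom, 0.001 without the filter, 0.164 with L code, 0.104 with the replicate block, 0.172 in males and -0.051 to 0.033 leaving out 1 library. Mat1a was 0.007 with RLE and with DESeq2, 0 with limma-voom, 0.297 with L code, 0.035 with the replicate block, 0.302 in males and -0.087 to 0.071 leaving out 1 library. Got1 was 0.26 with L code, 0.089 with the replicate block and -0.202 to 0.046 leaving out 1 library. Nags was 0.029 and Gldc 0.354 with L code, Slc25a15 0 and Sds -0.106 in males. On the ASK1i diet Got1 was 0.044 in males, Gldc 0.012 with L code, and Sds -0.181 with L code and -0.014 to 0.181 leaving out 1 library.

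Replicate numbers did not pair the libraries. Of 37 same-numbered pairs across groups 14 correlated above 0.1 (median 0.022), and 4 of 30 libraries correlated best with their own number. With the replicate block the calls were 1 higher and 23 lower on control chow (Asl, Cth and Prodh lost) and 2 higher and 26 lower on the ASK1i diet (Arg1, Bckdhb and Mat1a lost). The sex comparison could not be made without covariates or in males alone.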

Other observations

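The arginase isoenzymes and a pair of neighbouring urea cycle steps were compared within libraries, pairs chosen after their values were seen. The ratio of Arg2 to Arg1 CPM ran from 0.000151 through 0.00049 to 0.000675 in WT control and from 0.00265 through 0.00403 to 0.00483 in KI control, without overlap. With the inhibitor it ran from 0.00026 through 0.000434 to 0.000604 in WT and from 0.000605 through 0.00365 to 0.00657 in KI. The ratio of Ass1 to Asl ran from 2.93 through 3.42 to 6.41 in WT control and from 2.21 through 3.35 to 4.34 in KI control. On the ASK1i diet it ran from 3.7 through 6.18 to 8.21 in WT and from 2.42 through 3.07 to 4.41 in KI. The ranges overlapped on both diets.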
